A study of Mus musculus with 20 samples.

Results

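The chromatin step between 36 and 48 h after hormone withdrawal was described by comparing the peak list of the 48 h cells with that of the 36 h cells. Peaks were matched when they overlapped by at least 1 bp. The 48 h list held 59562 peaks and the 36 h list 59683, together 119245 of the 504887 peaks in the 10 lists of the series. The assay was ATAC-seq, which uses the transposase Tn5 to insert sequencing adapters into open chromatin. The material was the mouse line ER-Hoxa9-Lys-GFP (strain C57BL/6), cultured in vitro in RPMI with serum and SCF conditioned medium. Estradiol (E2) had been present at 0 h and was then washed out, and both the 48 h and the 36 h cells grew without it. There were 20 samples, 2 for each of the 10 times, 4 of them at 48 and 36 h. Nuclei of a preparation were divided between separate reactions with the transposase, which may make the replicates technical. Each time has 1 deposited peak list, with no list or read count per replicate, so read depth and the spread between replicates are unknown and no p-value is given. The intervals given are Wilson intervals at 95%, they cover only counting error, and neighbouring peaks are not independent. A peak absent from a list is called unlisted, because no signal value accompanies it.

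Hoxa9 is a homeobox transcription factor that keeps myeloid progenitors immature when it remains active. Fused to the hormone-binding part of the estrogen receptor, it is active while E2 is present, and its withdrawal lets such cells mature along the myeloid path. In this line a green fluorescent reporter is carried at the lysozyme locus, a gene of maturing granulocytes and macrophages. Neutrophil maturation is known for the ordered production of primary granules, then secondary and tertiary granules, and for the assembly of the phagocyte oxidase. ATAC-seq peaks mark promoters and the distal elements that transcription factors bind.

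Promoter peaks at marker genes of several cell types were counted at both times. Among 28 neutrophil surface and chemotaxis genes, 21 had a promoter peak at 48 h and 19 at 36 h. Secondary and tertiary granule genes had one at 9 of 20 genes at both times, and primary granule genes at 10 of 15. Of 20 housekeeping genes, 17 had a promoter peak at 48 h and 18 at 36 h. Of 18 markers of non-blood tissues, 0 had a promoter peak at 48 h and 0 at 36 h. Lymphoid markers had a promoter peak at 7 of 20 genes at 48 h and at 6 of 20 at 36 h. Of 18 macrophage and monocyte markers, 9 had a promoter peak at 48 h and 9 at 36 h. The same share over all genes was not computed, so these counts do not identify the cell type.

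Most peaks were shared. In the 48 h list 9278 peaks, 15.6% (15.3 to 15.9), had no 36 h peak, and in the 36 h list 9353 peaks, 15.7% (15.4 to 16.0), had no 48 h peak. The unmatched peaks were nearly equal in number, and the median width was 421 bp at 48 h and 413 bp at 36 h. The later lists differed more. Of the 48 h-only peaks 3450, 37.2% (36.2 to 38.2), were listed at 72 h, and these are called sustained gains. Of the 36 h-only peaks 6747 were unlisted at 72 h as well and are called sustained losses. The 72 h list was shorter, with 46837 peaks, and 76.1% of the 48 h peaks shared with 36 h were listed there. Sustained gains made up 5.79% of the 48 h list, and sustained losses made up 11.3% of the 36 h list. The gap was smaller with each list held to its 30000 widest peaks, where sustained gains were 10.4% of the 48 h list and sustained losses 12.2% of the 36 h list.

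The earlier lists showed that many of these differences were returns or interruptions. In the 24 h list 49.6% of 48 h-only peaks and 60.9% of 36 h-only peaks were already listed. Accordingly, only 1490 of the sustained gains were unlisted at 24 h, and 3870 of the sustained losses had been listed there. The remaining 1960 sustained gains were listed at 24 h, unlisted at 36 h and listed again at 48 and 72 h. A mirror group of 1826 peaks was listed at 24, 36 and 72 h and unlisted at 48 h. Peaks seen at only the one time among these 4 lists numbered 3182 at 48 h and 2877 at 36 h.

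**Figure D1:**
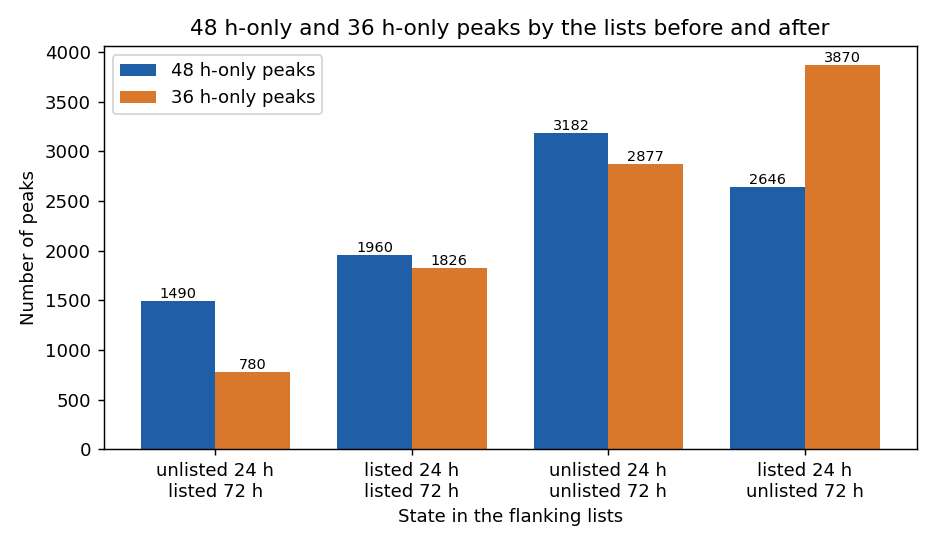
Number of 48 h-only peaks (left bars) and 36 h-only peaks (right bars) by whether they were listed at 24 h and at 72 h. The largest group is the 3870 36 h-only peaks listed at 24 h and unlisted at 72 h, and the 1490 48 h-only peaks unlisted at 24 h and listed at 72 h are fewer than the 1960 that were listed on both sides.

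Counted in the same way, the step to 48 h had fewer lasting gains than the 2 steps before it and more than the step after it. Peaks unlisted in the 2 lists before a step and listed in the 2 lists after it numbered 5235 for 12 to 24 h, 2896 for 24 to 36 h, 1490 for 36 to 48 h and 1059 for 48 to 72 h. Peaks listed in the 2 lists before and in neither list after numbered 3205, 3604, 3870 and 10479 for the same steps in that order. The gain count fell and the loss count rose from step to step. The steps and their flanking lists are unequally spaced in time, the lists differ in length, and these counts have no replicate spread.

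A stricter reading used all lists. In total 933 peaks (1.57% of the 48 h list) were in no list from 0 to 36 h and were listed at both 48 and 72 h, and they are called first openings. Another 1238 peaks (2.07% of the 36 h list) were in all 6 lists from 0 to 36 h and in none of the 4 lists from 48 h on, and they are called closures. Of the first openings 35.7% were listed at 96 h and 25.8% at 120 h, and 191 were listed at both. Of the shared 48 h peaks 49.2% were listed at 96 h and 39.5% at 120 h. The 2 groups are not alike, because first openings had to be listed at 72 h, where 76.1% of the shared peaks were. Among all sustained gains, which carry the same 72 h condition, 42.5% were listed at 96 h and 33.5% at 120 h. Peaks found at 48 h and in no other list numbered 1885, and those found at 36 h alone numbered 1323. Peaks absent from the 36 h list alone of the 10 numbered 219, and those absent from the 48 h list alone numbered 217.

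**Figure D2:**
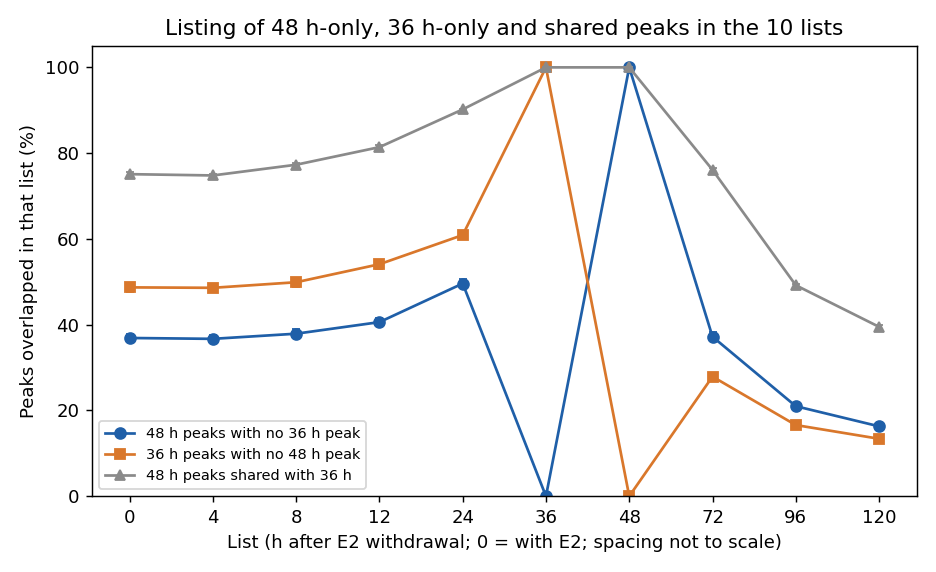
Share of 48 h-only peaks (blue circles), 36 h-only peaks (orange squares) and 48 h peaks shared with 36 h (grey triangles) overlapped by a peak in each of the 10 lists, with 95% Wilson intervals. The 48 h-only peaks lie below the 36 h-only peaks in every list before 36 h (36.9% against 48.7% at 0 h) and above them at 72 h (37.2% against 27.9%), and the shared peaks lie above both.

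First openings and closures were mostly distal. A promoter peak is one at most 1000 bp from the annotated transcription start site (TSS). Promoter peaks were 42 of the 933 first openings (4.50%) and 58 of the 1238 closures (4.68%), against 20.0% of the 48 h peaks shared with 36 h. Introns held 485 first openings and 568 closures, and intergenic DNA held 378 and 578. The median distance to the nearest TSS was 21499 bp for first openings and 23737 bp for closures, compared with 14138.5 bp for shared 48 h peaks. Both medians were larger than that of the shared peaks.

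Promoter sequences are shown for 3 first openings and 3 closures whose peaks covered most or all of the window upstream of the TSS, to let the 2 kinds be read side by side. They were chosen after their values were seen. Each is the RefSeq sequence of the 250 bases before the TSS (GRCm38.p6, the sequence of mm10), 5′ to 3′ on the gene's strand, with matches to 6 searched words in capitals. Stfa3 encodes a stefin, an inhibitor of cysteine proteases, and its window (chr16:36455393-36455642, minus strand) met a 613 bp peak listed at 48, 72, 96 and 120 h. It belongs to a family of similar neighbouring genes, so short reads there may be shared with its copies. Arhgap1 encodes a GTPase-activating protein for small GTPases, and its window (chr2:91649868-91650117, plus strand) met a 435 bp peak listed at the same 4 times. Plxnc1 encodes a semaphorin receptor, and its window (chr10:94944846-94945095, minus strand) met a 593 bp peak listed at 48 and 72 h. The closures, each listed in all 6 lists up to 36 h, were at F2rl2 and F2rl3, which encode protease-activated receptors, and at Itga2, which encodes an integrin subunit that binds collagen. Their windows were chr13:95696670-95696919 (plus), chr8:72761409-72761658 (plus) and chr13:114932101-114932350 (minus), and the peaks were 520, 630 and 1041 bp wide.
Stfa3: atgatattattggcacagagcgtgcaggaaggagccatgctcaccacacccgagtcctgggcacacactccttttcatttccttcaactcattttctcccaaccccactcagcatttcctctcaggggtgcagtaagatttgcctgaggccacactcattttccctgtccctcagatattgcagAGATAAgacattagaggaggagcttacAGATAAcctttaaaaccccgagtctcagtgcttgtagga
Arhgap1: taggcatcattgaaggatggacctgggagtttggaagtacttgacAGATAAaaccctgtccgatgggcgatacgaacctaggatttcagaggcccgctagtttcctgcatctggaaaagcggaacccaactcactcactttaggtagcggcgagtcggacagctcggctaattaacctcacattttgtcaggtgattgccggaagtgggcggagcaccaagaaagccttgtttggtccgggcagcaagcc
Plxnc1: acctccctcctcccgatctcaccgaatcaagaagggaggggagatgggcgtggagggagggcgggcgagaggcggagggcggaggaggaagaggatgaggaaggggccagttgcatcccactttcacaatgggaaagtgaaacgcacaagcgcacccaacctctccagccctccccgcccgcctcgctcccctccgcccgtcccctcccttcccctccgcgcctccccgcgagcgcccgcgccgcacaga
F2rl2: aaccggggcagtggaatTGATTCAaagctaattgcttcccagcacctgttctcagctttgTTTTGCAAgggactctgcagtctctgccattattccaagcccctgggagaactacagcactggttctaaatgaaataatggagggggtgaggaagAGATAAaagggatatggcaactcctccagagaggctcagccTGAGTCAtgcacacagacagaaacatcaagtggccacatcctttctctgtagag
F2rl3: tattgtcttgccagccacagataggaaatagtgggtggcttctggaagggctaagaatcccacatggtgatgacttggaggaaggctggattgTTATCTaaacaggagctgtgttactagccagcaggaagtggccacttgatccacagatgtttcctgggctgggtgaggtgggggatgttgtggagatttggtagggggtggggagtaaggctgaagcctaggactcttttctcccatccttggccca
Itga2: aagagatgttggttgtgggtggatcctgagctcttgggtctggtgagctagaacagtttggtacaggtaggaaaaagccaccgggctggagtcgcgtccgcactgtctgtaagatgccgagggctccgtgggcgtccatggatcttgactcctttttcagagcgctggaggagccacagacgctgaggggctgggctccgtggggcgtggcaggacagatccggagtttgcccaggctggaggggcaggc

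The words, searched on both strands, were TTGCNNAA for C/EBP factors, GAGGAAGT for PU.1 and other ETS factors, TGANTCA for AP-1, TGTGGTNNA for RUNX factors, AGATAA for GATA factors and TGATTNAT for HOX with PBX. Capitals mark AGATAA in Stfa3 and Arhgap1, its reverse complement in F2rl3, and AP-1, C/EBP and GATA words in F2rl2. The marked words do not overlap. The first AP-1 word of F2rl2, TGATTCA, lies outside the peak, which starts downstream of it. AGATAA was in 5 of the 17 windows overlapped by at least 100 bp by a first opening (29.4%), in 4 of the 29 overlapped by a closure (13.8%) and in 9.99% of all 32851 windows. The windows of Arhgap1 and Zfp408 overlap and hold the same match, which does not lie wholly inside either peak, so 4 non-overlapping windows carried the word and 3 first opening windows held it inside the peak. Among windows overlapped by sustained gains the share with AGATAA was 5.87%, among those overlapped by sustained losses 5.01%, and among those of peaks listed at all 10 times 5.04%. TTGCNNAA was in 3 (17.6%) and 2 (6.90%) of those windows, and in 9.56% of all. Of those 3, the windows of Gm21188 and Gm36161 are near-identical copies, which leaves 2 separate sequences among 15. TGTGGTNNA was in 0 of 17, in 3 of 29 and in 3.23% of all windows, and TGANTCA in 0, in 2 and in 6.75%. GAGGAAGT was in 0 of 17 and 1 of 29 windows (2.44% of all), and TGATTNAT was in 0 of 17 and 0 of 29 (2.82% of all). These are counts over few windows, and a matching word is a description of the letters only.

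The promoter share of unmatched peaks followed listing at 72 h, in both directions of the step. Promoters made up 11.7% (11.0 to 12.3) of all 48 h-only peaks and 12.4% (11.8 to 13.1) of all 36 h-only peaks. Among unmatched peaks listed at 72 h the share was 18.6% (17.3 to 19.9) for 48 h-only peaks, the sustained gains, and 23.6% (22.0 to 25.3) for 36 h-only peaks. Among those unlisted at 72 h it was 7.57% (6.92 to 8.27) for 48 h-only peaks and 8.11% (7.48 to 8.78) for 36 h-only peaks, the sustained losses. The higher share in sustained gains than in sustained losses therefore goes with the 72 h condition in their definitions. The share was 22.5% among sustained gains that had been listed at 24 h and 13.5% among those that had not. It was also 24.0% among the 36 h-only peaks listed at 24 and 72 h. Among peaks absent from a single list, 56.2% of those missing at 36 h alone and 47.9% of those missing at 48 h alone were promoters, with median widths of 791 and 745 bp. Promoters absent from a single list thus occurred in both directions.

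Width separated the shared from the unmatched peaks. Median width was 307 bp for 48 h-only and 315 bp for 36 h-only peaks, against 441 bp for the 48 h peaks shared with 36 h. Of peaks up to 200 bp wide, 58.8% at 48 h and 51.5% at 36 h had no counterpart, while between 600 and 800 bp the shares were 7.69% and 9.06%. Above 1500 bp the shares rose again, to 18.7% at 48 h and 16.1% at 36 h. Of the 2690 peaks of at least 1000 bp at 48 h, 314 had no 36 h peak, and 247 of these were listed in 5 or more of the 8 other lists. At 36 h 310 of 2572 such wide peaks had no 48 h peak, and 242 of them were listed that often. Only 2 of the wide 48 h-only peaks were first openings, and 11 of the wide 36 h-only peaks were closures.

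**Figure D3:**
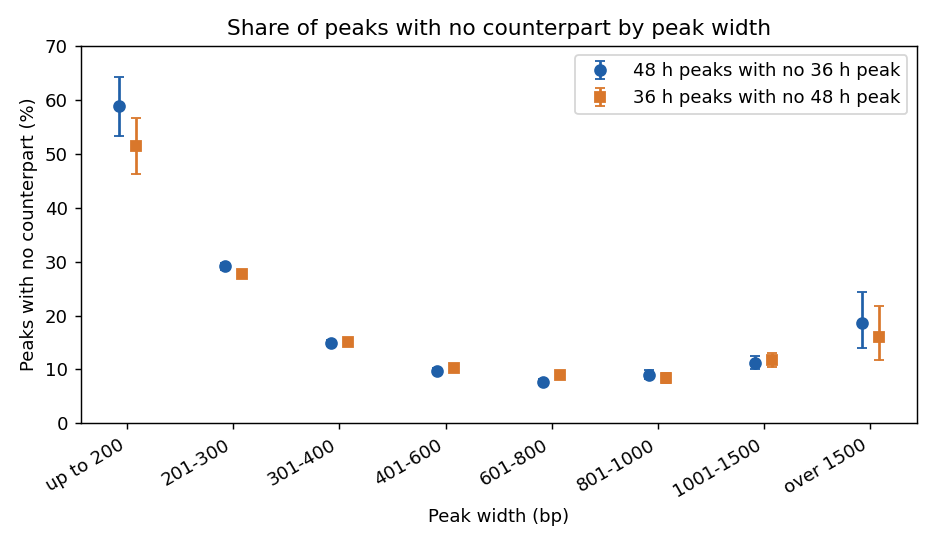
Share of 48 h peaks with no 36 h peak (blue circles) and of 36 h peaks with no 48 h peak (orange squares) by peak width in bp, with 95% Wilson intervals. Both shares are highest for peaks up to 200 bp (58.8% and 51.5%), lowest between 600 and 1000 bp, and higher again above 1500 bp (18.7% and 16.1%).

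Shared peaks kept their width. Over 49635 pairs with a single partner on each side, the median log2 ratio of the 48 h width over the 36 h width was 0.01, and 52.0% were wider at 48 h. Distal pairs that were unlisted at 24 h had a median log2 width ratio of 0.03, with 56.7% wider at 48 h. Distal pairs that went unlisted at 72 h had a median ratio of 0.00 on the same scale, with 48.5% wider at 48 h. These shifts are small beside the quartiles of the ratio over all pairs, -0.08 and 0.11, and width is not a measure of signal.

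Repeat annotation differed among the groups. B2 elements, short interspersed repeats of rodents, annotated 1.39% of first openings and 5.98% of closures, against 3.73% of shared 48 h peaks. They annotated 10.6% of the peaks found at 48 h alone and 9.60% of those found at 36 h alone. The B2 share of unmatched peaks went with listing at 72 h in both directions of the step. Among those listed at 72 h it was 3.04% for 48 h-only peaks and 2.84% for 36 h-only peaks. Among those unlisted at 72 h it was 9.93% and 8.12%. Long terminal repeats annotated 13.2% of first openings, compared with 8.11% of shared 48 h peaks, and L1 elements 5.79%, compared with 2.50%. Peaks found at 48 h alone had shares of 14.2% for long terminal repeats and 5.09% for L1 elements, so high shares of both were also found outside the first openings.

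Granule genes were followed first at Lyz2, which encodes lysozyme and is the locus of the reporter. Lyz2 had 3 peaks in each list from 0 to 36 h, then 5, 4, 1 and 2 in the lists of 48, 72, 96 and 120 h, so the 48 h list held its highest number. A 266 bp peak in the 3′ UTR (mm10 chr10:117277820-117278085) was a first opening, also listed at 72 and 120 h. The other new Lyz2 peak, upstream at -3501 bp from the TSS (chr10:117285662-117285885), had been listed from 0 to 12 h and returned at 48 and 72 h. The reporter insertion and the native gene cannot be told apart in these lists. Among the primary granule genes as a whole, 5 of 75 peaks at 48 h were sustained gains (6.67%, against 5.79% of all 48 h peaks), and they belonged to Lyz2 and Ctsc. Ctsc encodes the peptidase that activates granule serine proteases, and it had 14 peaks at 48 h, against 11 at 36 h. Its first openings lay in intergenic DNA upstream, at -52023 bp (chr7:88225835-88226290) and -33548 bp (chr7:88244302-88244773) from the TSS. A closure 43034 bp downstream of that TSS was the only closure of the primary granule list.

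Secondary and tertiary granule genes had the highest share of sustained gains among the 16 gene lists. Of their 56 peaks at 48 h, 9 were sustained gains (16.1%, interval 8.69 to 27.8, against 5.79% of all 48 h peaks). Of these 9 gains, 6 were unlisted at 24 h. Gains lay at 7 of the 20 genes, while 15.7% of the 18364 genes with a peak at 48 or 36 h had a sustained gain. Of the 48 peaks of the list at 36 h, 4 were sustained losses (8.33%, against 11.3% of all 36 h peaks). First openings numbered 5 (8.93%, against 1.57% of all 48 h peaks). Closures numbered 0, against 2.07% of all 36 h peaks. Ltf, which encodes the iron-binding protein lactoferrin, had 1 peak at 48 h and 0 at 36 h, and from 72 h on it had 3, 3 and 4. Before 36 h a single Ltf peak was listed, at 8 h, and it did not overlap the 48 h peak. The 48 h Ltf peak, chr9:111033779-111034063, lay in an intron of the gene 14629 bp from the TSS. That site was also listed at 72 h and unlisted at 96 and 120 h, so the Ltf peaks of the last lists are other sites. Mmp9, which encodes gelatinase B, gained an upstream peak at -1190 bp from its TSS (chr2:164946922-164947136) at 48 and 72 h, while a peak in an exon counted as a sustained loss and was listed again at 96 h. Padi4, whose product citrullinates histones, had 7 peaks at 48 h, against 5 at 36 h, and both gains had been listed before 36 h. Fcnb, which encodes the lectin ficolin B, was the nearest gene to first openings at chr2:27997826-27998240 and chr2:28000136-28000466, which lie over 80 kb away in an intron of another gene.

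Genes of the phagocyte oxidase had 10 sustained gains among 79 peaks at 48 h (12.7%, interval 7.02 to 21.8, against 5.79% of all 48 h peaks), at 6 of 10 genes. Sustained losses were 3 of 77 peaks at 36 h (3.90%, against 11.3% of all 36 h peaks), all at Vav3, a guanine nucleotide exchange factor. Cybb, which encodes the catalytic subunit and stands in both this and the granule list, had 2 peaks at 48 h, against 1 at 36 h. Its new peak in the third intron (chrX:9462732-9463105) was listed at 48, 72, 96 and 120 h and in no earlier list. Ncf1, which encodes a cytosolic subunit, had 8 peaks at both times. It gained an upstream site at -3737 bp (chr5:134233262-134233463), listed at 48, 72 and 96 h and not before. A further upstream site at -7364 bp counted as a gain but had been listed at 0 and 8 h. Its promoter peak at -104 bp (chr5:134229488-134229971), listed in all 6 lists up to 36 h, was unlisted at 48 h and listed again at 72 and 96 h. Hvcn1, the proton channel that supports the oxidase, regained a promoter peak and an intron peak that had been listed at 24 h. Of the 10 gains of the list, 5 were unlisted at 24 h. Ncf1, Hvcn1, Vav1 and Vav3 had 2 of the gains each, and Cybb and Rac1 had 1 each. First openings numbered 2 (2.53%, against 1.57% of all 48 h peaks), at Cybb and Ncf1.

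Other neutrophil genes had gain shares near that of all peaks (5.79%) and loss shares below that of all peaks (11.3%). Surface and chemotaxis genes had 7 gains among 150 peaks at 48 h (4.67%, interval 2.28 to 9.32) and 8 losses among 146 at 36 h (5.48%, interval 2.80 to 10.4). Their 3 first openings were at Itgb2, the integrin beta subunit of leukocytes (chr10:77531789-77532188, in the first intron), at Il1r2, a decoy receptor for interleukin 1 (chr1:40037845-40038203), and at Cd33, an inhibitory lectin (chr7:43538574-43538890). The Il1r2 and Cd33 sites were still listed at 96 and 120 h and the Itgb2 site was not. Cxcr4, the receptor that holds neutrophils in the marrow, had 24 peaks at 48 h, against 27 at 36 h. All 3 of its sustained losses had been listed at 24 h and at none of the times from 0 to 12 h, and 1 of them reappeared at 96 and 120 h. Migration and cytoskeleton genes had 15 gains among 201 peaks (7.46%, interval 4.57 to 11.9) and 13 losses among 199 (6.53%, interval 3.86 to 10.9).

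**Figure D4:**
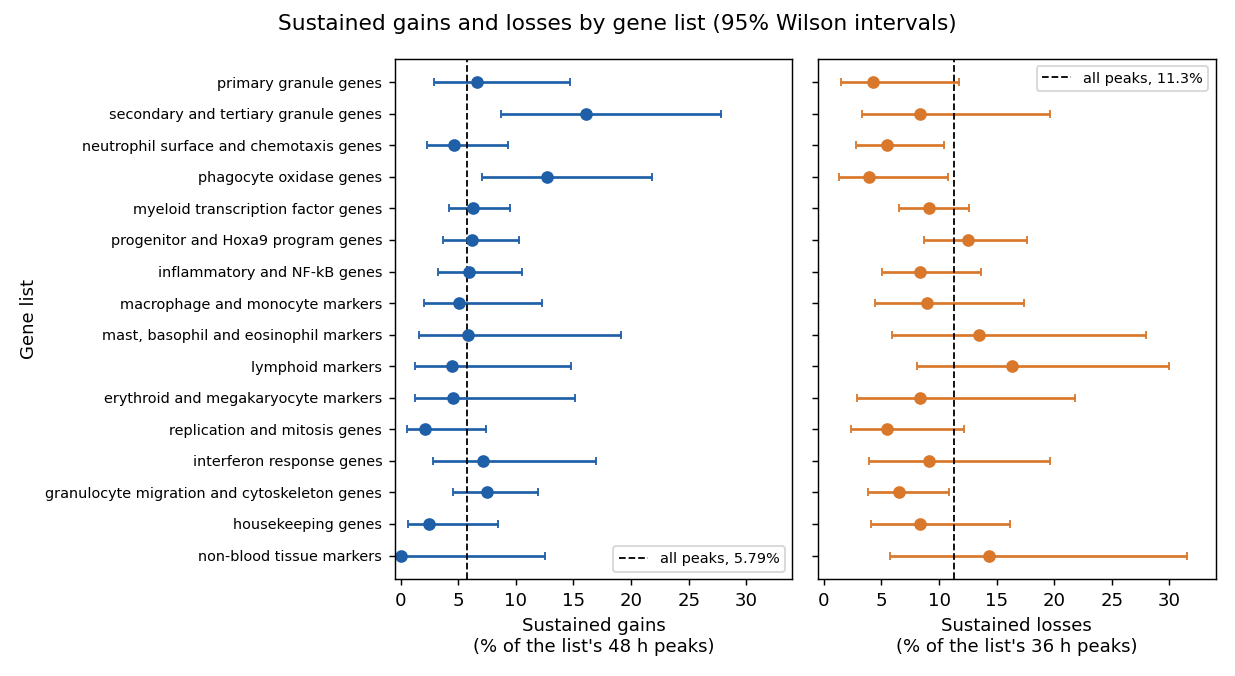
Sustained gains as a percentage of each gene list's 48 h peaks (left) and sustained losses as a percentage of its 36 h peaks (right), with 95% Wilson intervals, and dashed lines at the values of all peaks (5.79% and 11.3%). The secondary and tertiary granule list (16.1%) and the oxidase list (12.7%) have the highest gain shares, and the lymphoid list has the highest loss share (16.3%, interval 8.12 to 30.0).

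Progenitor genes had more losses than gains, as did all peaks. The 29 progenitor and Hoxa9 program genes had 13 gains among 210 peaks at 48 h (6.19%) and 27 losses among 216 at 36 h (12.5%), at 9 and 18 genes. Both shares were near those of all peaks (5.79% and 11.3%). Closures numbered 7, at 6 genes, or 3.24% of the 36 h peaks against 2.07% overall. Meis1 encodes a homeobox partner of Hoxa9, and it had 8 peaks at 48 h, against 11 at 36 h. Its closure was a 640 bp peak in an intron, 77651 bp from the TSS (chr11:18940999-18941638). Sox4, a transcription factor of immature blood cells, had 3 peaks at 48 h, against 6 at 36 h, with closures at chr13:28930346-28930779 and chr13:28942968-28943366. Closures were also assigned to Tal1, a factor of stem and erythroid cells, to the DNA methyltransferase gene Dnmt3b, to the kinase gene Camk2d and to Adgrg1, an adhesion receptor of stem cells. Members of the same list opened too: Cdk6, a kinase of the cell cycle, had 19 peaks at 48 h, against 17 at 36 h, and Erg, an ETS factor, had 16 and 15, each with 1 first opening.

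Myeloid transcription factor genes had gains and losses at shares near those of all peaks. Gains were 21 of 333 peaks at 48 h (6.31%, interval 4.16 to 9.45, against 5.79%). Losses were 31 of 341 peaks at 36 h (9.09%, interval 6.48 to 12.6, against 11.3%). First openings numbered 9 (2.70%, against 1.57% of all 48 h peaks) and closures 8 (2.35%, against 2.07% of all 36 h peaks). Runx1, a factor needed for definitive blood formation, had 30 peaks at 48 h, against 29 at 36 h, yet 2 sustained gains and 6 sustained losses. Its closures lay in an intron at chr16:92783581-92783938 and chr16:92822103-92822397. A 1032 bp Runx1 promoter peak also counted as a sustained loss, but it was listed at 0, 4, 36, 96 and 120 h, which is an on and off pattern. Irf8, a factor of monocytes and dendritic cells, had 12 peaks at 48 h, against 16 at 36 h, with 3 sustained losses. The Irf8 closure was in an intron (chr8:120747793-120748150). Jun, of the AP-1 family, had 22 peaks at 48 h, against 27 at 36 h, with 5 sustained losses and 0 gains. First openings were assigned to Cebpd and Stat3, factors of granulocyte cytokine response. Another was at Gfi1, a repressor needed for neutrophils, at which gains and losses were equal at 2 each. Runx1, Fos and Maf also had 1 first opening each. Cebpe and Cebpb, genes of C/EBP factors, had 1 closure each. Cebpe had 4 peaks at 48 h, against 7 at 36 h, with 2 sustained losses and 0 gains.

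**Figure D5:**
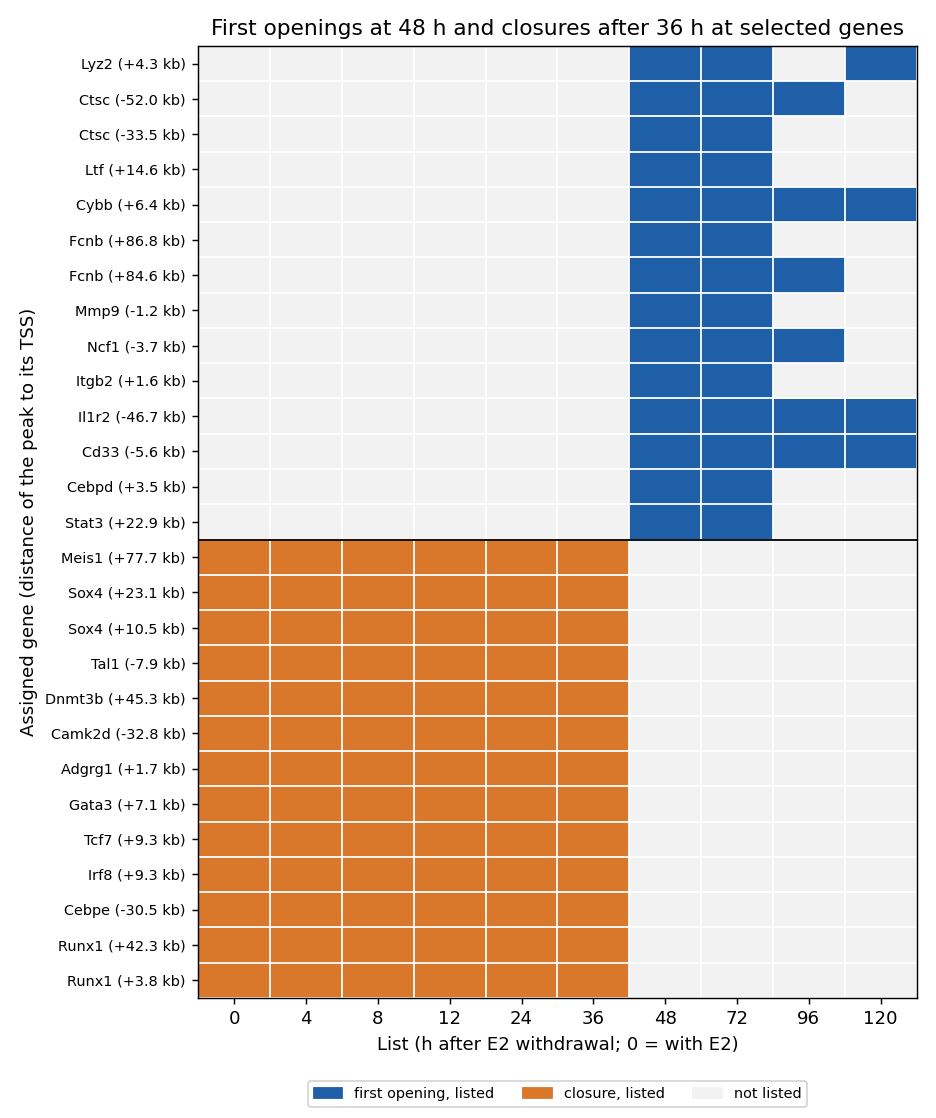
Lists in which 14 first openings (blue, upper block) and 13 closures (orange, lower block) were present, by assigned gene and distance to its TSS. Rows were selected after their values were seen and the definitions fix the whole row of a closure and a first opening up to 72 h. What varies is the state of first openings at 96 and 120 h. Those of Cybb, Il1r2 and Cd33 were listed at both times. Those of Ltf, Mmp9, Itgb2, Cebpd and Stat3 were listed at neither. The Ctsc site at -33548 bp and the Fcnb site at 86845 bp were also listed at neither. The first openings not named here were listed at either 96 or 120 h.

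Genes of other lineages gave small counts. Over all peaks the gain share was 5.79% and the loss share 11.3%. These values lay inside the gain and loss intervals of every list in this paragraph. Lymphoid markers had 2 gains among 45 peaks at 48 h and 7 losses among 43 at 36 h (16.3%, interval 8.12 to 30.0). The losses were at 3 genes, with closures at Gata3 and Tcf7, both factors of T cells. Mast cell, basophil and eosinophil markers had 2 gains among 34 peaks and 5 losses among 37. Prg2, which encodes the eosinophil granule major basic protein, closed at an upstream site at -18890 bp and opened at its promoter at 48 and 72 h (chr2:84980253-84980536). Macrophage and monocyte markers had 4 gains among 79 peaks and 7 losses among 78, and erythroid and megakaryocyte markers had 2 among 44 and 3 among 36. Non-blood markers had 0 gains among 27 peaks and 4 losses among 28. Replication and mitosis genes had low counts in both directions, with 2 gains among 94 peaks (2.13%), 5 losses among 91 (5.49%) and 0 first openings and closures. Inflammatory and NF-kB genes had 10 gains among 169 and 14 losses among 167, interferon response genes 4 among 56 and 5 among 55, and housekeeping genes 2 among 82 and 7 among 84. The part of other cell types in the gene results was not tested.

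Over all genes, 4482 (24.4%) had more peaks at 48 h than at 36 h and 4550 (24.8%) had fewer. Sustained losses touched 5052 genes (27.5%), first openings 869 (4.73%) and closures 1141 (6.21%), and 1036 genes (5.64%) had both a sustained gain and a sustained loss. The most sustained gains were at Gm14005 (6) and at Bcl2l11 (5), which encodes the cell death protein Bim. Bcl2l11 had 19 peaks at 48 h, against 16 at 36 h, and its gains included upstream first openings at -67988 bp (chr2:128057927-128058174) and -60364 bp (chr2:128065552-128065797) that stayed listed through 120 h. Its promoter peak also counted as a gain but was on and off in the earlier lists. Ctsb, which encodes a lysosomal cysteine protease, had 5 peaks at 48 h, against 1 at 36 h, and 7, 5 and 4 from 72 h on. Of its 4 gains 2 were first openings. Ctsb was among 20 genes with 4 gains, others being A530013C23Rik, E030013I19Rik, B4galt6, Babam2, Cartpt, Etv6 and Fut8, and Etv6, an ETS repressor, had 28 peaks at 48 h, against 22 at 36 h.

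The most sustained losses were at Gm30214, with 11, of which 4 were closures. Gm30214 had 59 peaks at 48 h, against 67 at 36 h, then 29, 5 and 2 from 72 h on, so most of its peaks left the lists later. Dab2ip, which encodes a Ras GTPase-activating protein, had 11 peaks at 48 h, against 19 at 36 h, with 8 losses and 0 gains. Pde10a, a phosphodiesterase gene, had 17 and 23 with 8 losses, Mir7681 had 9 and 18 with 7, and Hgf, which encodes a growth factor, had 29 and 32 with 7. Kcng1, a potassium channel subunit gene, had 4 peaks at 48 h, against 8 at 36 h, and 1, 0 and 0 from 72 h on. Kcng1 was among 9 genes with 6 losses, others being 0610038B21Rik, 1700019E08Rik, Hdac4 and Chn2. A gene far from its neighbours collects more peaks by the nearest-TSS rule, so these counts are not per length.

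Among the widest unmatched peaks, each of the 5 widest promoter sustained gains was an on and off site. They lay at Setd7, Fbxl20, Zbtb1, Kmt5b and Hmgn2, were 1849 to 2098 bp wide and were all listed at 24 h. The widest promoter sustained losses, at Ado, Bcl7a, Srpk2, Zfp800 and Fbxl14, were 1704 to 1886 bp wide, and all were listed again at 96 or 120 h. The widest promoter closures, which are unlisted from 48 to 120 h by definition, were at Mab21l1 (1676 bp), a gene of eye development, and at Klhl23 (1237 bp). The widest promoter first opening was at Hnrnpul1 (1012 bp, chr7:25754499-25755510), which encodes an RNA-binding protein, and it was listed at 48, 72, 96 and 120 h. Promoter first openings also included Ltc4s, which encodes leukotriene C4 synthase, Lmo2, a partner of Tal1, and Kdm6b, a histone demethylase gene.

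Several peaks with a microRNA gene as the nearest gene left the list in this step, a case chosen after its values were seen. Mir221 was the nearest gene to 3 peaks listed at 48 h and shared with 36 h. Another 4 peaks of the 36 h list were sustained losses, a class that held 11.3% of all 36 h peaks. The one nearest to Mir221 was a closure 38780 bp away (chrX:19107347-19107870). The other 3 had been absent from some of the lists before 24 h. The peaks were assigned by the nearest-TSS rule, and a link to Mir221 was not tested. The 3p mature products of Mir221 and its neighbour Mir222 (RefSeq, GRCm38.p6) share the seed, bases 2 to 8, shown in capitals, while the 5p product of Mir221 has another.
mmu-miR-221-3p: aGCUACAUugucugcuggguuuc
mmu-miR-222-3p: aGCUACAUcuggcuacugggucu
mmu-miR-221-5p: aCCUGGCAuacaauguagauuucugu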

How the data were processed

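ATAC-seq was done on 20 samples, 2 per time, and the authors deposited 1 annotated peak list per time, which stands for both replicates. Pooling of replicates, any Tn5 shift of the reads and the peak threshold are not given in the sources used here. The tools BWA, MACS2 2.0 and STAR 2.5 and the build mm9 are named, without roles, per the submitters' processing notes. Annotation was by HOMER against mm10, per the file headers, and peaks fell at mm10 start sites (4966 of the 48 h peaks within 100 bp of a TSS), so coordinates are given as mm10, counted from 1. The deposited score is 0 for every peak in the 10 lists, so peaks could not be ranked by it. Start, end, nearest gene, TSS distance and annotation are as deposited.

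Peaks were matched at an overlap of at least 1 bp and sorted by the lists that held them. No test was possible with 1 list per time. Gene lists and named genes (those with most sustained gains or losses, up to 3 per list with at least 2 changes, and those at the widest sites) were set by rule, and further genes are named where they carried a first opening or a closure. Members, lists and rules were chosen with earlier results of these data known. A word search in windows at peak centres was planned and needs a genome, which was not used here, so RefSeq promoter windows were searched instead. The sorting steps were tested on simulated data. Python 3.11.15, numpy 2.4.6, pandas 2.3.3 and matplotlib 3.10.9 were used. Alternatives covered the overlap, list length, peak width, the later list and the promoter distance.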

Additional observations from a re-analysis of the deposited data

How the results depend on the processing

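No paired analysis was possible because each time has 1 list for both replicates. For the same reason no replicate could be left out. Of 34 values recomputed, 5 stayed within the interval of the reported value and 29 moved. The 48 h and 36 h shares without a counterpart were 16.8% and 17.0% when the overlap had to cover 0.5 of each peak, 14.2% and 14.4% when peaks up to 500 bp apart counted as shared, 20.9% and 20.8% with the 30000 widest peaks, and 10.9% and 11.5% for peaks of at least 300 bp. The 48 h-only share listed later and the 36 h-only share unlisted later (37.2% and 72.1%) were 35.0% and 74.2% with that overlap, 50.0% and 58.6% with the widest peaks, 46.9% and 64.2% at 300 bp, and 21.0% and 83.4% with the 96 h list. The promoter share of sustained gains and of sustained losses (18.6% and 8.11%) was 16.9% and 6.45% with the 500 bp gap, 23.0% and 11.2% at 300 bp, 32.7% and 6.85% with the 96 h list, 15.3% and 5.59% with promoters within 500 bp, and 23.8% and 13.5% within 2500 bp. It was 9.90% for losses with the larger overlap, 10.5% for losses with the widest peaks, and 13.5% for gains also unlisted at 24 h. Listing is all or nothing, so a peak near the calling threshold can change lists without a change in signal, and the peak depth is unknown.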
